A study of Mus musculus with 8 samples.

Results

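The genes described here are 9 identity genes of embryonic resident Kupffer cells, the liver's own macrophages, chosen by symbol from the 31910 genes of the count table: Clec4f, Timd4, Vsig4, Cd5l, Marco, Cd163, Slc40a1, Folr2 and Id3. RNA was sequenced in 8 samples of frozen mouse liver, 4 from mice given the adeno-associated viral vector AAV2/9-SA (Liver-SA) and 4 from mice given AAV2/9-Ctrl (Liver-ctrl). The series design gives 4.8e10 vector genomes per mouse into the tail vein after 7 weeks of feeding for both groups, and the series concerns mouse steatohepatitis and a protein of bacterial origin directed at acetyl-CoA carboxylase, an enzyme of fatty acid synthesis. It describes a chow, a high-fat and a high-fat, high-cholesterol diet, but the sources used here do not assign a diet to any of the 8 samples, nor do they give strain, age, sex or the promoter in the vector. The labels do not state that each sample is a separate animal, so the p-values given here rest on the variation among these samples, which may be technical.

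Kupffer cells are the resident macrophages of the liver sinusoids. They are seeded by embryonic precursors, renew themselves locally, and clear bacteria, complement-coated particles and aged red cells from portal blood. In fatty liver disease with inflammation (steatohepatitis) the embryonic cells are known to be lost in part, and monocyte-derived macrophages can take their place. Such newcomers acquire some Kupffer genes, among them Clec4f, early and others, such as Timd4, late.

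Total counts were 14114145 to 15922829 in 7 libraries and 28184001 in SA 4. The share of mitochondrial transcripts was 9.23% in ctrl 4, against 3.55% to 4.88% elsewhere. Alb, the hepatocyte product albumin, was at 42728 to 76455 CPM (counts per 1000000, scaled by TMM factors), and all 10 hepatocyte markers listed were detected well enough to be tested. Adgre1, which encodes the macrophage protein F4/80, was at 29.2 to 55.4 CPM. All 9 Kupffer genes passed the filter on low counts. In bulk RNA, fewer Kupffer cells and less of an RNA per Kupffer cell cannot be told apart.

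The windows upstream of the genes are shown for Clec4f and Timd4, the broad and the late marker of Kupffer identity. Vsig4 is shown too, as it did not share their low value in ctrl 4. RefSeq (build GRCm38.p6) gave a start for 8 of the 9 genes, and the 250 bases before it are printed 5′ to 3′ on the gene's strand. Capitals mark matches on either strand to the letters named here. GAGGAA is a longer form of the GGAA core bound by PU.1 and other ETS factors, and shorter GGAA matches were not marked. TGCTGA is a MAF half-site and AGGTCA a half-site of nuclear receptors such as LXR and RXR. CACCTG is an E-box bound by ZEB factors. The windows lie at chr6:83656117-83656366 (minus strand), chr11:46810549-46810798 (plus strand) and chrX:96293439-96293688 (minus strand).
Clec4f: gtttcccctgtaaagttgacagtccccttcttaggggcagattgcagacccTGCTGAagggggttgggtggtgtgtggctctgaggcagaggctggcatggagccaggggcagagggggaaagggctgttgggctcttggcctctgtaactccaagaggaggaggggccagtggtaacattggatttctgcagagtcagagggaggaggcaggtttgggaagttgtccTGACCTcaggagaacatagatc
Timd4: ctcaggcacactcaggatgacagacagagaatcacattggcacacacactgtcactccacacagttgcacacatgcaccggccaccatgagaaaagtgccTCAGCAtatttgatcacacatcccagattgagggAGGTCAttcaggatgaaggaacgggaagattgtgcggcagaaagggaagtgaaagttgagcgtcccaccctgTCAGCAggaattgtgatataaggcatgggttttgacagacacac
Vsig4: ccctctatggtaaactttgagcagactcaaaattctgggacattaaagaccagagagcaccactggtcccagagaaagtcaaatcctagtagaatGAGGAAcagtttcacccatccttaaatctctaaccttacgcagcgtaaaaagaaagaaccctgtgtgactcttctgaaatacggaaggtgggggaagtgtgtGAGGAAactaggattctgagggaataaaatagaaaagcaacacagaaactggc
The AGGTCA letters occurred in the Clec4f and Timd4 windows and in no other of the 9 windows of these genes (Folr2 has 2), against 14.0% of 32851 RefSeq windows. TGCTGA occurred in 5 of the 9, belonging to Cd5l, Clec4f, Folr2 and Timd4, against 16.1% of all windows. GAGGAA occurred in 4, those of Cd5l, Id3, Marco and Vsig4, against 23.3%, and CACCTG in 1, a Folr2 window, against 17.2%. No matches overlapped in the printed windows. A match describes the letters and is not evidence of binding.

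The question was whether resident Kupffer cell transcripts differed between Liver-SA and Liver-ctrl. The fitted values of 8 of the 9 genes were higher in SA, but none passed the test, and in none did the 4 SA libraries lie wholly above the 4 ctrl libraries. With the quasi-likelihood test of edgeR and Benjamini-Hochberg adjustment over 12358 genes, 0 of 9 members were called, against 0.0162% of all genes. Of all genes, 0.00809% were called with a higher level in SA. At an unadjusted p under 0.05 the test gave 1 member, Timd4, which was higher in SA, against 6.21% of all genes in either direction and 2.91% higher in SA. DESeq2 also called 0 members, against 0.351% of the genes it tested, and gave 2 at an unadjusted p under 0.05, Timd4 and Cd163, against 5.26%. With limma-voom 0 members were called, against 0.0243% of genes, and the same 2 had an unadjusted p under 0.05, against 5.63%. A positive log2 fold change was found in 48.7% of all tested genes, and complete separation with SA above ctrl in 1.66%. The median log2 fold change was 0.28 over the 9 members and -0.01 over all tested genes. Folr2 counts are a special case, described with that gene.

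**Figure D1:**
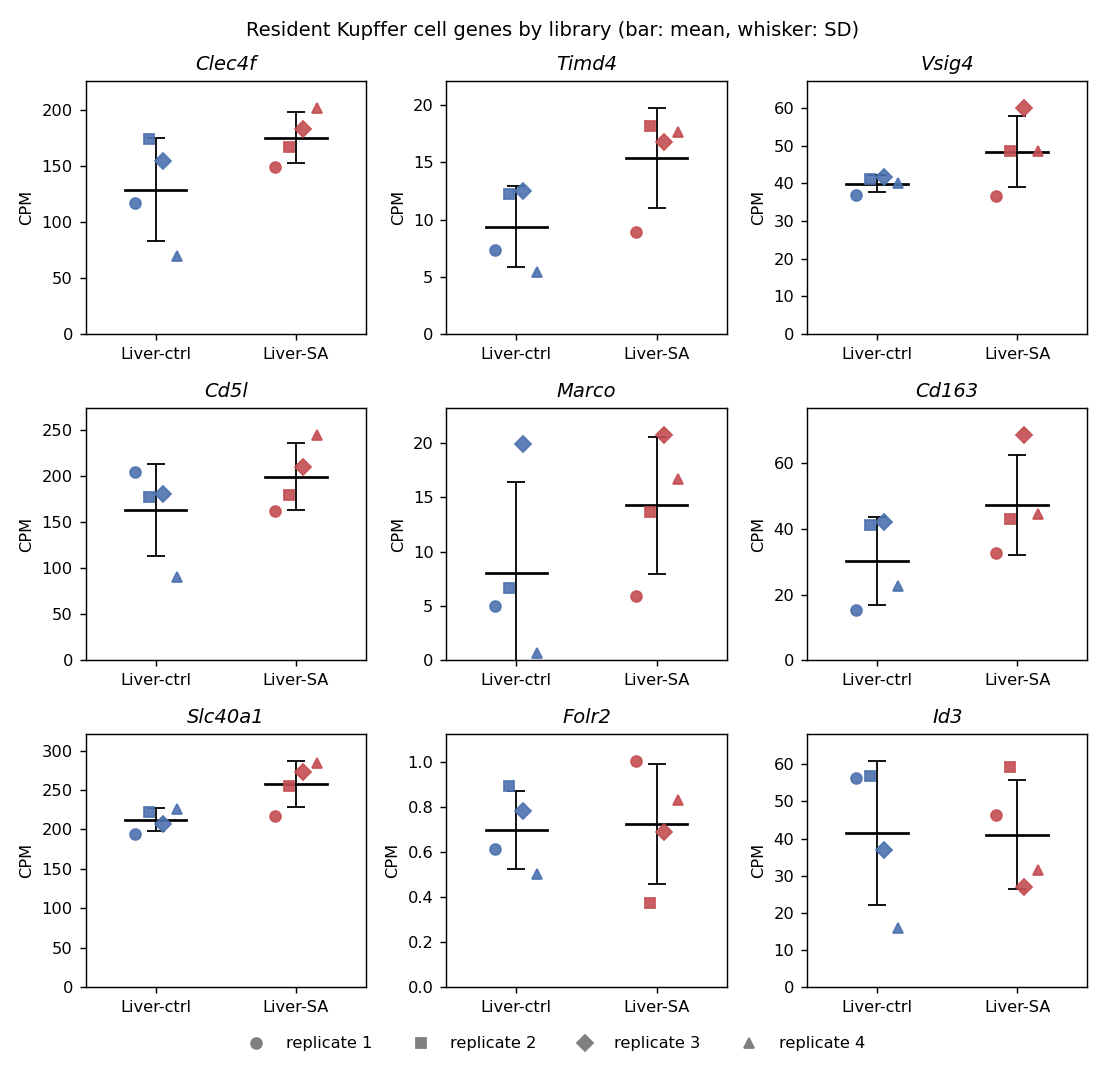
Level of each of the 9 resident Kupffer cell genes in CPM (vertical axis, from 0) in the 4 Liver-ctrl and 4 Liver-SA libraries, one panel per gene. Points are libraries, with a marker shape for each replicate number, the bar is the mean and the whisker the SD (n = 4; the lower whisker of Marco in ctrl is cut at 0). Library ctrl 4 is the lowest control in 6 panels and SA 1 the lowest SA library in 7.

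Among the surface receptors that define the cell, Clec4f, a C-type lectin restricted to Kupffer cells in mice, was at 116.8, 174.2, 154.5 and 69.6 CPM in ctrl 1 to 4 and at 149.3, 167.2, 183.4 and 201.6 CPM in SA 1 to 4. The groups overlapped, with ctrl 2 above SA 1 and SA 2, and the control spread came mostly from the low value in ctrl 4. The log2 fold change was 0.45 ± 0.24 (SE, 95% interval -0.06 to 0.95; edgeR, adjusted p = 0.890), which was 0.23 without ctrl 4.

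Timd4, the phosphatidylserine receptor TIM-4 that marks long-resident Kupffer cells, was at 7.30, 12.3, 12.5 and 5.46 CPM in ctrl 1 to 4. In SA 1 to 4 it was at 8.92, 18.2, 16.7 and 17.7 CPM. SA 2, SA 3 and SA 4 lay above every control, while SA 1 lay among the controls. Its log2 fold change was 0.71 ± 0.29 (SE, 95% interval 0.08 to 1.34; edgeR, adjusted p = 0.731). Without SA 1 it was 0.90 (adjusted p = 0.414) and without ctrl 4 it was 0.52 (adjusted p = 0.535). The unadjusted edgeR p was 0.0297, and 498 other genes had a smaller one.

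Vsig4, the complement receptor CRIg that captures C3b-coated particles, was at 36.8, 41.1, 41.8 and 40.1 CPM in ctrl 1 to 4 and at 36.8, 48.5, 60.0 and 48.6 CPM in SA 1 to 4. Its controls were the tightest of the set, with a coefficient of variation of 5.49%, and SA 1 was just below all of them while the other SA libraries were above them all. For Vsig4 the log2 fold change was 0.28 ± 0.16 (SE, 95% interval -0.06 to 0.62; edgeR, adjusted p = 0.925). It was 0.16 without SA 3.

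Scavenger genes followed. Cd5l, a secreted scavenger-receptor-type protein also called AIM, was at 204.6, 176.8, 180.8 and 90.5 CPM in ctrl 1 to 4 and at 162.2, 178.8, 209.3 and 244.6 CPM in SA 1 to 4. Apart from ctrl 4 the groups lay over each other, and the log2 fold change of 0.28 ± 0.23 (SE, 95% interval -0.21 to 0.78; edgeR, adjusted p = 0.989) was 0.08 without that library.

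Marco, a collagen-like scavenger receptor for bacteria and particles, varied more than any other member. It was at 4.98, 6.62, 19.9 and 0.646 CPM in ctrl 1 to 4, the last from 9 reads, and at 5.90, 13.6, 20.7 and 16.7 CPM in SA 1 to 4. The controls spanned nearly the whole SA range. Its log2 fold change was 0.82 ± 0.63 (SE, 95% interval -0.56 to 2.19; edgeR, adjusted p = 0.989), 0.43 without ctrl 4 and 1.80 without ctrl 3 (adjusted p = 0.481).

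Cd163, the receptor that takes up haptoglobin-bound haemoglobin, was at 15.2, 41.2, 42.0 and 22.8 CPM in ctrl 1 to 4 and at 32.7, 43.0, 68.7 and 44.5 CPM in SA 1 to 4. Here ctrl 1 was the lowest control, and SA 2 and SA 4 were only just above ctrl 3. The log2 fold change was 0.64 ± 0.31 (SE, 95% interval -0.03 to 1.304; edgeR, adjusted p = 0.833), and 0.41 without ctrl 1 or without SA 3.

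Slc40a1 encodes ferroportin, the iron exporter through which macrophages return iron from red cells, and hepatocytes also express it. It was at 194.2, 222.1, 207.3 and 225.9 CPM in ctrl 1 to 4 and at 216.7, 255.2, 273.0 and 283.8 CPM in SA 1 to 4. As for Timd4 and Cd163, 3 SA libraries were above all controls and SA 1 was within their range. For Slc40a1 the fitted log2 fold change was 0.28 ± 0.14 (SE, 95% interval -0.02 to 0.57; edgeR, adjusted p = 0.833), and it was 0.30 without ctrl 4.

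Id3, a transcriptional inhibitor of E proteins needed for Kupffer cell identity, is also expressed by endothelial and other liver cells. It was at 56.3, 56.8, 37.0 and 16.0 CPM in ctrl 1 to 4 and at 46.4, 59.2, 27.0 and 31.6 CPM in SA 1 to 4. The groups covered each other, and the log2 fold change was -0.017 ± 0.34 (SE, 95% interval -0.76 to 0.73; edgeR, adjusted p = 0.996). Its sign depended on the fit, as it was 0.071 with limma-voom and 0.11 in FPKM.

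Folr2, folate receptor beta of resident macrophages, had only 6 to 23 reads per library in the count table, 0.375 to 1.01 CPM. The log2 fold change from these reads was 0.06 ± 0.41 (SE, 95% interval -0.84 to 0.96; edgeR, adjusted p = 0.996). The authors' FPKM table (fragments scaled to transcript length and library size) gave a level closer to the other members, at 13.9, 19.3, 25.2 and 11.6 FPKM in ctrl 1 to 4. The SA libraries 1 to 4 were at 19.3, 19.4, 22.8 and 24.7 FPKM. On that scale ctrl 4 was again the lowest library, ctrl 3 the highest, and the groups overlapped. The ratio of mean CPM to mean FPKM was 0.0365 for Folr2 and 0.978 to 5.78 for the 6 other members in both tables, so the tables disagree on Folr2. In GENCODE M21 Folr2 overlaps the antisense gene Gm10602 and the pseudogene Gm45319, and no other member overlaps a gene. Fcna, a ficolin of Kupffer cells that overlaps the antisense gene Fcnaos, was at 0 counts in all libraries but 10.7 to 62.6 FPKM. Of the genes listed in any group, Hamp, Lrat and Igkc were likewise at 0 counts in all libraries but at 30.6 to 683.1, 6.06 to 11.4 and 0.553 to 37.1 FPKM, so a 0 in the count table is not evidence that a gene is silent. The FPKM table was uneven too, with Trf, the plasma iron carrier, at 2.77 to 7.60 FPKM in 6 libraries and 7154 and 8799 FPKM in ctrl 4 and SA 3, while its counts gave 12861 to 17743 CPM throughout. Which table is nearer to the Folr2 level was not tested.

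**Figure D2:**
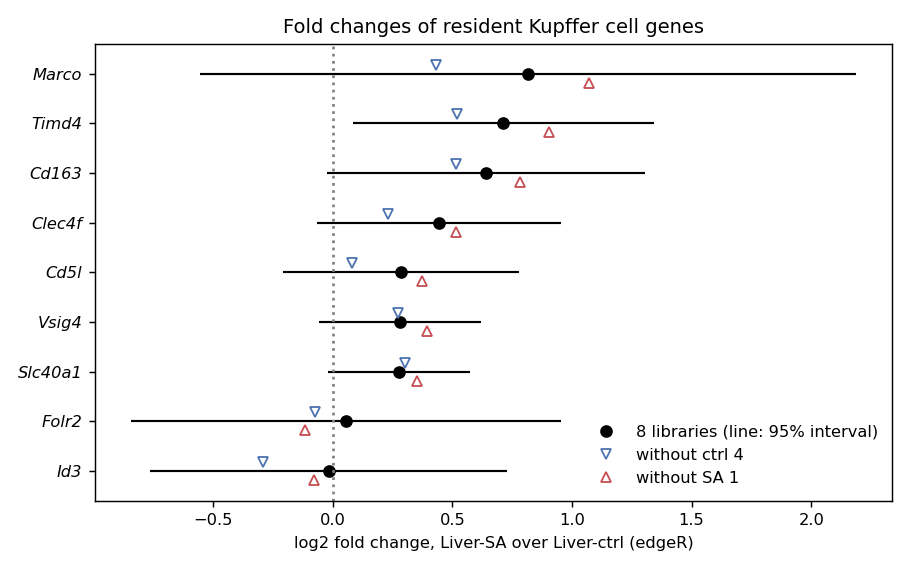
Log2 fold change of each gene, Liver-SA over Liver-ctrl (horizontal axis), with all 8 libraries (filled circles, 95% interval as a line), without ctrl 4 (open triangles pointing down) and without SA 1 (open triangles pointing up). The interval excludes 0 for Timd4 alone, before adjustment for the number of genes tested, and Folr2 and Id3 lie near 0.

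Levels can be ordered between genes only per length. On the authors' FPKM scale Cd5l was highest, at 105.1 ± 41.3 in ctrl and 128.5 ± 27.2 in SA (SD, n = 4). Slc40a1 followed at 81.1 ± 8.18 and 98.9 ± 14.2 FPKM, and Clec4f at 67.9 ± 27.4 and 92.7 ± 14.7 FPKM (SD, n = 4). The group ranges of these 3 neighbours overlapped, but within libraries Cd5l was above Clec4f in 8 of 8 and above Slc40a1 in 7 of 8, and Slc40a1 was above Clec4f in 6 of 8. Id3 was at 42.1 ± 19.2 and 42.3 ± 14.8 FPKM and Vsig4 at 35.4 ± 5.28 and 43.4 ± 9.65 FPKM (SD, n = 4), with Id3 the higher in 5 of 8 libraries. Next was Folr2 at 17.5 ± 6.07 and 21.5 ± 2.69 FPKM. Cd163 was lowest, at 4.81 ± 3.13 and 8.60 ± 3.80 FPKM (SD, n = 4). Timd4 and Marco have no FPKM row. The place of Slc40a1 depended on the scale: per kilobase of exon in GENCODE M21 it ranked 4 of 9, at a mean of 23.6 CPM in ctrl and 28.6 in SA, below Clec4f (52.1 and 70.97) and Vsig4 (26.9 and 32.7). On that scale Timd4 and Marco stood near Cd163, with mean CPM per kilobase of 4.32 in ctrl and 7.08 in SA for Timd4, 4.18 and 7.40 for Marco, and 5.55 and 8.65 for Cd163. In FPKM 7 of 7 listed members had a positive log2 fold change on the log2(FPKM + 1) scale, against 52.4% of 9255 genes. There limma called 0 of them, against 0.0324% of genes, and 0 had an unadjusted p under 0.05, against 3.52%.

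As a set the members were lowest in ctrl 4. Each of the 9 was below its own mean over the 8 libraries there, and the median deviation of log2 CPM was -0.95, against -0.26 in ctrl 1, 0.10 in ctrl 2 and 0.09 in ctrl 3. Marco in ctrl 4 was at 6.15% of the mean of the other 3 controls, Id3 at 32.0%, Clec4f at 46.9%, Cd5l at 48.3% and Timd4 at 51.0%. Folr2 and Cd163 were at 65.7% and 69.4%. Vsig4 and Slc40a1 did not share the low value, at 100.35% and 108.7%. The complement genes C1qa, C1qb and C1qc, which macrophages make, were at 18.8, 47.7 and 26.2 CPM in ctrl 4 and at 77.1 to 83.0, 79.8 to 97.9 and 63.1 to 80.2 CPM in the other controls. These 3 were named after their values were seen, and they do not stand for all broad macrophage genes. Mertk, Cybb, Ptprc, Laptm5 and Cd68, of the same list, lay within the range of the other controls in ctrl 4. Over the tested genes of that list the median deviation was -0.36 in ctrl 4, against 0.42, -0.03 and 0.17 in ctrl 1 to 3. Library ctrl 4 also had the highest mitochondrial share, and of 4 equal classes of tested genes by exon length, the shortest deviated there by a median of -0.17 and the longest by 0.15. The same medians were -0.13 and 0.15 in SA 3, where the median deviation of the members was highest (0.33, against 0.32 in SA 4). In ctrl 1 they were 0.13 and -0.15, and in ctrl 2 0.11 and -0.16. The part of RNA quality in the low ctrl 4 values was not tested.

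In SA the members were highest in SA 2, SA 3 and SA 4, each with 8 of 9 above their own mean and median deviations of 0.20, 0.33 and 0.32. SA 1 had 3 of 9 above and a median of -0.11. SA 1 was the lowest SA library for 7 members, all but Folr2 and Id3. Id3 went another way within SA, being highest in SA 2 and lowest in SA 3.

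**Figure D3:**
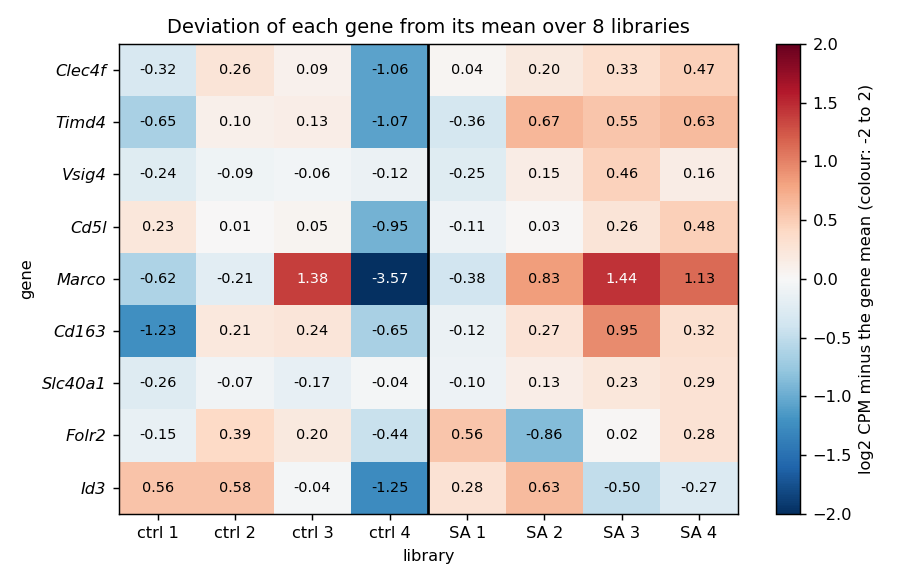
Log2 CPM of each gene (rows) in each library (columns) minus the gene's mean over the 8 libraries, printed in each cell and coloured from -2 (blue) to 2 (red). The ctrl 4 column is negative for all 9 genes, least for Vsig4 and Slc40a1, and Marco has the widest range, from -3.57 in ctrl 4 to 1.44 in SA 3.

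Ratios of counts within a library are free of its scaling. The number of Timd4 reads per Clec4f read was 0.0625, 0.0704, 0.0809 and 0.0784 in ctrl 1 to 4. For SA 1 to 4 it was 0.0597, 0.109, 0.0913 and 0.0877. Timd4 was thus low together with Clec4f in ctrl 4, and the ratio there was within the range of the controls. In SA 2, SA 3 and SA 4 the ratio was above every control, and in SA 1 it was below them all. Its geometric mean was 1.17-fold higher in SA (exact two-sided permutation test, p = 0.314, adjusted over 2 ratios 0.314, where 4 against 4 libraries cannot go below 0.0286). Clec4f reads per Adgre1 read, the resident gene against the broad macrophage gene, were 2.51, 5.12, 3.02 and 2.38 in ctrl 1 to 4. In SA 1 to 4 they were 4.83, 3.27, 3.31 and 4.6045. The highest library was ctrl 2 and the groups overlapped, with a geometric mean 1.27-fold higher in SA (exact two-sided permutation test, p = 0.286, adjusted 0.314).

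Of 18 other Kupffer cell genes, 17 were tested, 14 had a positive log2 fold change and 3 a negative one. None was called with edgeR (1 at an unadjusted p under 0.05), and the median was 0.20. For this and the later lists, 48.7% of all tested genes had a positive value and 6.21% an unadjusted p under 0.05. Kcna2, a voltage-gated potassium channel, averaged 3.92 ± 1.58 CPM over the controls and 8.72 ± 3.85 CPM over the SA libraries (SD, n = 4). The difference on the log2 scale was 1.14 ± 0.34 (SE), with an adjusted p of 0.497 in edgeR. Adgre4, an adhesion receptor of the F4/80 family, had 0.36 and Siglec1, the sialic acid receptor CD169, 0.54. These 18 genes summed to 811.4 to 1139 CPM in ctrl and 884.5 to 1253 CPM in SA, so the sums overlapped. C6 was the largest term in each library, at 238.2, 525.0, 378.7 and 505.3 CPM in ctrl 1 to 4. In SA 1 to 4 it was at 548.9, 290.2, 548.9 and 182.4 CPM. Fcna entered at 0 counts, and the sum without C6 was not examined. The median deviation over the tested genes of the list was -0.05, 0.01, 0.02 and -0.43 in ctrl 1 to 4. It was -0.14, 0.12, 0.37 and 0.19 in SA 1 to 4.

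Of 12 transcription factors of the cell, all of them tested, 8 had a positive value and 4 a negative one, with a median of 0.08, and none was called with edgeR (1 at an unadjusted p under 0.05). Maf, a factor of macrophage self-renewal and identity, had -0.43 ± 0.18 (SE; edgeR, adjusted p = 0.772), Rxra, the partner of LXR and other nuclear receptors, 0.32 and Tfec 0.45. The summed level of the 12 was 939.8 to 1141 CPM in ctrl and 1169 to 1245 CPM in SA. These sums did not overlap, but without Rxra the other 11 summed to 415.0 to 471.6 CPM in ctrl and 368.9 to 577.9 CPM in SA, which overlap. Rxra was at 589.6 ± 88.5 CPM over the controls and 734.2 ± 54.8 CPM over SA (SD, n = 4). A further list held niche signals from endothelial and stellate cells, which hold Kupffer cells in place, and the receptor genes Notch2 and Acvrl1. It had a median of -0.14, with 4 of 12 positive and none called (0 unadjusted). Notch2, a receptor of the Notch pathway, had 0.36, the growth factor gene Csf1 -0.29 and the Notch ligand gene Dll1 0.38. Haem and iron recycling genes had a median of 0.08, with 9 of 13 positive and none called (0 unadjusted), among them Nfe2l2, the transcription factor NRF2, at -0.32, Blvrb, a biliverdin reductase, at 0.33 and Tfrc, the transferrin receptor, at 0.31.

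The 18 broad macrophage genes had a median of -0.05, with 8 positive and 10 negative, and none was called with edgeR (1 at an unadjusted p under 0.05). Lyz2, lysozyme of myeloid cells, had -0.54 ± 0.20 (SE; edgeR, adjusted p = 0.662), Mertk, an engulfment receptor, 0.33 and Cd14 -0.60. Genes of recruited and lipid-laden macrophages went lower in the fit in 12 of 13 tested members, with a median of -0.89. None was called, and 8 had an unadjusted p under 0.05, against 6.21% of all tested genes. Gpnmb had -2.93, Cx3cr1 -1.78 and Ccr2 -1.43 (edgeR, adjusted p = 0.227, 0.367 and 0.480). The recruited list summed to 143.8 to 468.6 CPM in ctrl and 161.4 to 232.6 CPM in SA, with S100a4 and Itgam at 0 in the count table. In ctrl 4, where the resident markers were lowest, the median deviation of the recruited list was 0.68, and it was 1.31 in ctrl 1, -0.63 in ctrl 2 and 0.18 in ctrl 3. In SA 1 to SA 4 it was -0.05, -0.63, -0.56 and -0.29, so ctrl 2 was as low as the lowest SA library. The part of a shift between macrophage types in the resident marker values was not tested.

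**Figure D4:**
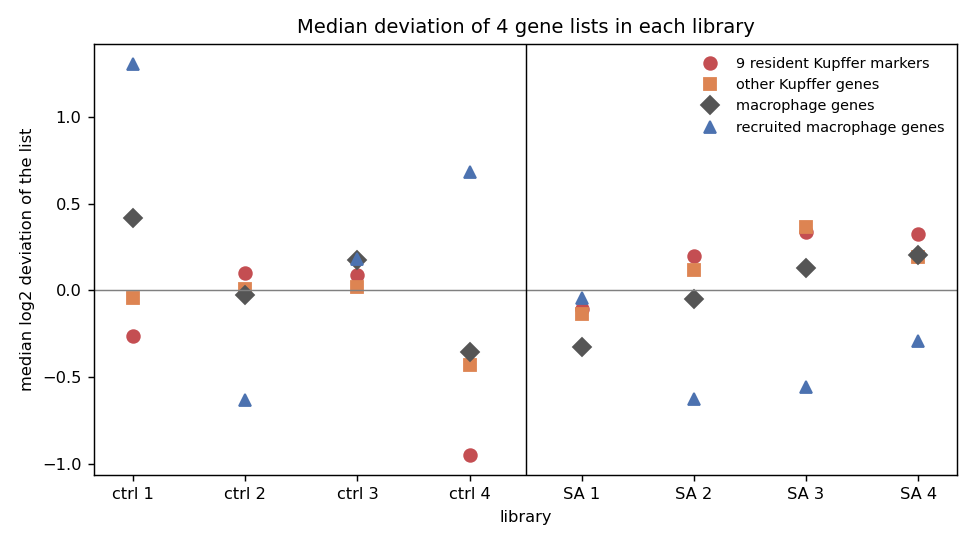
Median deviation from the gene mean (log2 CPM, vertical axis) over the tested genes of 4 lists in each library (horizontal axis). In ctrl 1 and ctrl 4 the recruited macrophage genes lie above 0 and the 9 resident markers below it. In ctrl 2, SA 2, SA 3 and SA 4 the order is the opposite. Both lie above 0 in ctrl 3 and below 0 in SA 1.

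Markers of other liver cells that could carry Id3, Slc40a1 or Marco were read in the same way, and none was called with edgeR. Sinusoidal endothelial genes had a median of -0.03, with 5 of 11 positive (1 at an unadjusted p under 0.05). They summed to 503.9 to 583.2 CPM in ctrl and 401.3 to 634.5 CPM in SA, with Lyve1 at -0.71, Oit3 at -0.18 and Stab2 at 0.35. Stellate genes had 0 of 8 positive and a median of -0.35 (2 unadjusted), with Dcn at -0.67. Their sums of 479.6 to 663.6 CPM in ctrl and 415.7 to 455.4 CPM in SA did not overlap. Hepatocyte genes had 6 of 10 positive and a median of 0.01 (1 unadjusted), with Hnf4a at 0.61. Bile duct genes had 1 of 7 positive and a median of -0.89 (4 unadjusted), with sums of 53.98 to 142.4 CPM in ctrl and 39.8 to 68.9 CPM in SA. Spp1, osteopontin, is in this list and in the recruited list and gives the median of both, and without it the bile duct median was -0.95 and the recruited median -0.93. Without Spp1 the bile duct genes summed to 18.3 to 29.2 CPM in ctrl and 10.4 to 17.1 CPM in SA. Neutrophil genes had 0 of 4 positive and a median of -0.64 (1 unadjusted), summed to 8.48 to 18.8 CPM in ctrl and 7.76 to 11.2 CPM in SA, and had Ly6g at 0 in the count table. T and NK cell genes had 6 of 6 tested members positive, of 10 listed, and a median of 0.82 (3 unadjusted). The 10 listed genes summed to 2.80 to 7.51 CPM in ctrl and 8.57 to 12.9 CPM in SA, which did not overlap. Cd8a, at 0.121 to 0.341 CPM in ctrl and 1.19 to 1.87 CPM in SA, passed the low-count filter through SA libraries alone. Not tested were Cd3e (ctrl 0 to 0.784 CPM, SA 0 to 0.398) and Klrb1c (ctrl 0 to 0.341, SA 0 to 0.277). Cd3d (ctrl 0 to 0.276, SA 0.125 to 0.868) and Cd3g (ctrl 0.144 to 0.552, SA 0.346 to 1.27) were not tested either. B and plasma cell genes had 4 of 5 positive, of 8 listed, and a median of 0.17 (0 unadjusted), summed to 19.3 to 32.4 CPM in ctrl and 15.6 to 43.7 CPM in SA, and had Ms4a1, Igkc and Mzb1 at 0 in the count table, of which Igkc has FPKM values. The part of these other cells in the values of the 9 genes was not tested.

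The genes whose pattern over the 8 libraries was nearest to that of Clec4f were found among 9479 tested genes with a mean of at least 5 CPM, by the mean absolute difference of centred log2 CPM. They were Themis2 (0.0939), Nfil3 (0.0970) and Kifc2 (0.0992). The nearest member, Cd5l, ranked 16 at 0.167. Nearest to Timd4 were Acot1 (0.132), Tle2 (0.132) and Aifm3 (0.157), and the nearest member was Clec4f, ranked 10 at 0.213. With so many genes and 8 libraries such likeness is a description only.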

How the data were processed

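RNA of 8 samples of frozen mouse liver was extracted with RNAiso Plus and made into libraries with a NEBNext Ultra kit, per the labels' protocols. The deposited count table holds unnormalized whole read counts per gene. The deposited FPKM table holds values computed by the authors for 9265 genes. FastQC 0.19.7, HISAT2 and StringTie 2.2.1 are named per the submitters' processing notes, with builds GRCm39 and mm10 and no role. The read counter and strand setting are not given in the sources used here.

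Counts of all genes were tested with edgeR 4.0.16 in R 4.3.3 (filterByExpr, TMM factors, quasi-likelihood F test, no block), with Benjamini-Hochberg adjusted p under 0.05 as the threshold. Standard errors come from the fold change and F, and 95% intervals from the t distribution with the test's degrees of freedom. CPM are counts over TMM-scaled totals of tested genes. The test was tested on simulated data drawn for Liver-SA against Liver-ctrl. Over 12225 genes, it recovered 65% of simulated 2-fold changes and 94% of 4-fold changes, and 7 of its 166 calls were false. In the real data it called 2 genes, so these rates may not hold there. The largest fitted change of a member was 1.76-fold, for Marco, which is below the sizes simulated. No 2 libraries of a group agreed within sampling noise (chi-square per degree of freedom at least 33.2). Exact permutation tests used scipy 1.17.1.

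Alternatives were DESeq2 1.42.0, limma-voom and limma on FPKM (limma 3.58.1, pseudocounts 1 and 0.1, FPKM of at least 0.5 in 4 libraries or no filter), RLE and upper quartile factors, other filters, the replicate number as a block and the omission of each library. The members and lists were chosen with earlier results of these data known. Named genes were all members, the 3 with the smallest p of each list (not all printed), those in a ratio, and the 3 nearest in pattern to Clec4f and to Timd4. Promoter sequences are from RefSeq, GRCm38.p6.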

Additional observations from a re-analysis of the deposited data

Results flagged for a closer look

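Timd4 in SA 1, at 8.92 CPM, stood apart from the other 3 SA libraries, at 16.7 to 18.2 CPM, by more than the critical share of the group's range (Dixon's test). Of 22 groups of 4 values examined, it was the only one, and chance alone would set apart about 1 in 20.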

How the results depend on the processing

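No alternative that was run called a member, and the lowest adjusted p of any member was 0.414, for Timd4 without SA 1. The number of genes called among all genes was 2, and it was 62 with DESeq2, 8 without a low-count filter, 6 with the replicate number as a block and 0 to 19 when a library was left out (0 without ctrl 4, 19 without SA 1). The median over the members stayed at 0.24 to 0.39, and 7 to 9 had a positive value. Id3 turned positive with limma-voom (0.071), the replicate block (0.068) and FPKM (0.11 at either pseudocount, and 0.11 with no filter), and ran from -0.29 to 0.17 as libraries were left out. Folr2 ran from -0.12 to 0.26 likewise. The cause was not tested. The other 7 members kept their direction wherever they had a value. The count filter of 1 CPM gave no value for Folr2, and the FPKM fits none for Timd4, Marco or the Timd4 to Clec4f ratio. With libraries left out the log2 ratio difference of Timd4 per Clec4f ran from 0.11 to 0.39. For Clec4f per Adgre1 it ran from 0.22 to 0.59. The exact permutation p cannot go below 0.0571 with a library left out, so it could not pass 0.05. That lowest value was reached for Timd4 per Clec4f without SA 1 and for Clec4f per Adgre1 without ctrl 2. Same-numbered libraries correlated at -0.0230, -0.0198, 0.219 and -0.218 in their deviations across genes, and not every library correlated best with its own number. Correlations this weak cannot settle whether the numbers pair the libraries. With the block, 2 members had an unadjusted edgeR p under 0.05, against 705 of the 12358 tested genes, and no member was called. Folr2 rests on 6 to 23 reads a library in the counts, which disagree with its FPKM level.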
